A study of Homo sapiens with 4 samples.

Results

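The 8 subunits of the cytosolic chaperonin TRiC (TCP1, CCT2, CCT3, CCT4, CCT5, CCT6A, CCT7 and CCT8) were followed by RNA-seq in JJN3, a human cell line established from multiple myeloma, a cancer of plasma cells. They were chosen by name as the subunits of a known complex, with earlier results of these data known. They are 8 of the 60682 genes counted. Cells transduced with a short hairpin RNA (shRNA) against the kinase WNK1, called shWNK1 cells here, were compared with control cells that received the NS shRNA. There were 2 libraries of total RNA per group, all from the same line grown in the same serum-supplemented medium. The hairpin sequence and the time after transduction are not given in the sources used here. Nothing says that the 2 libraries of a group came from separate cultures, so each p-value rests on library-to-library spread that may be technical.

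TRiC, also called CCT, is a pair of stacked rings in which each of the 8 related subunits holds a fixed place. It encloses newly made proteins in its central chamber and uses ATP to close a built-in lid while they fold. Actin and tubulin, which fold poorly without it, are its best known clients, and proteins built of WD40 repeats are another large group. Clients are handed over by the prefoldin complex and by chaperones of the HSP70 family, and phosducin-like proteins act as cochaperones. Work in yeast has placed the subunits that bind and hydrolyse ATP strongly (TCP1, CCT4, CCT2 and CCT5) on one side of the ring and the weak ones (CCT7, CCT8, CCT6A and CCT3) on the other.

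The libraries held 16973521 and 20164122 counts in shWNK1 cells and 17491537 and 17392619 counts in NS cells. WNK1, the targeted transcript, had 325 and 403 counts in the shWNK1 libraries, against 4911 and 4148 in the NS libraries (log2 fold change -3.80, SE 0.085, edgeR adjusted p = 4.2e-25), the direction the labels call for. The plasma cell markers SDC1, IRF4, PRDM1, XBP1, TNFRSF17 and CD38 summed to 1452 to 1473 CPM (counts scaled to library size) in shWNK1 libraries. In NS libraries they summed to 1584 to 1666 CPM. By the edgeR test described below, SDC1 (log2 -1.32), CD38 (-0.60), IRF4 (-0.23) and XBP1 (-0.17) fell. PRDM1 rose (0.25), and TNFRSF17 was not called. Over all tested genes 20.2% fell and 18.5% rose by that test. Markers of T and NK cells, myeloid cells and erythroid cells each summed to under 1 CPM in all 4 libraries, with CD3D, LYZ, FCGR3A and HBB at 0. The 4 mature B cell markers summed to 3.24 to 3.27 CPM in shWNK1 and 6.55 to 7.95 CPM in NS libraries, nearly all of it PAX5, with MS4A1 at 0. Stromal or epithelial markers summed to 133 to 137 CPM in shWNK1 and 117 to 128 CPM in NS libraries, mostly EPCAM, which was not called, with COL1A2 at 0 and KRT18 lower. Mitochondrially encoded genes took 5.82% and 6.02% of counts in shWNK1 libraries and 4.93% and 4.58% in NS libraries; with these and the immunoglobulin genes left out, all 8 subunits below were still called lower, at the same median log2 fold change of -0.43. The part of the other markers in the results was not tested.

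All 8 subunit genes were lower in shWNK1 cells. The falls lay between 1.22-fold for CCT2 and 1.41-fold for CCT4, with a median log2 fold change of -0.43 over the 8 genes, against 0.01 over the 14864 genes tested. Each of the 8 falls passed the test (quasi-likelihood test of edgeR at 0.05, with Benjamini-Hochberg adjustment over all tested genes), while 20.2% of all tested genes fell and 18.5% rose by that rule. TRiC subunits are abundant, and a larger share of abundant transcripts was called lower: of the 727 genes with at least the mean level of CCT4, the least counted subunit (245 CPM), 50.2% fell and 16.2% rose, with a median log2 fold change of -0.16. Since the table holds amounts relative to each library's total, less transcript per cell and a changed total cannot be told apart, nor can fewer cells with full levels and less RNA in every cell.

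The promoters of 4 subunits are shown because all 8 genes were lower: CCT4 and TCP1, with the largest falls, CCT3, with the most transcript, and CCT2, with the smallest fall. They are RefSeq windows on GRCh38.p14 that run from 250 bases before a start site to 50 after it, 5′ to 3′ on the strand of the gene. CCT4 lies at chr2:61888607-61888906, minus strand, TCP1 at chr6:159789553-159789852, minus strand, CCT3 at chr1:156338243-156338542, minus strand, and CCT2 at chr12:69585209-69585508, plus strand. Capitals mark CCAAT boxes (CCAAT, or ATTGG when read on the other strand), pairs of heat shock units (GAANNTTC or TTCNNGAA), E-boxes (CACGTG) and ETS sites (CCGGAAG, or CTTCCGG on the other strand).

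CCT4: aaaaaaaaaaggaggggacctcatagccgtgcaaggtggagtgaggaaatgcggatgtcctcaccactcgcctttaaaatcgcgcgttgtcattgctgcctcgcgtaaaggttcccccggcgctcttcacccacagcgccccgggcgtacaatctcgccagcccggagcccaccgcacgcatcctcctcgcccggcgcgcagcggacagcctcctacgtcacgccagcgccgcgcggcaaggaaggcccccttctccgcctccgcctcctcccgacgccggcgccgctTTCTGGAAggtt
TCP1: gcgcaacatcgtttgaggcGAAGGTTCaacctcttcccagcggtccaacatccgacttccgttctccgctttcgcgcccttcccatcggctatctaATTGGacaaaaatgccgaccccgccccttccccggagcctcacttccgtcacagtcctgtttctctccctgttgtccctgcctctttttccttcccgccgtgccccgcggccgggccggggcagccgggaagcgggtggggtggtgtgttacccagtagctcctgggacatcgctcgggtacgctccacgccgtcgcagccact
CCT3: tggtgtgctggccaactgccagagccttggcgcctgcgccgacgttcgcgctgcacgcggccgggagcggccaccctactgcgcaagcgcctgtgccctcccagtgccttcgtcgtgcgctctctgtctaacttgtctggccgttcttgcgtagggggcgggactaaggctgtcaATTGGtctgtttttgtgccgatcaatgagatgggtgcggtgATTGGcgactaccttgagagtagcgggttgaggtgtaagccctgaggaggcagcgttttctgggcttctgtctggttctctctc
CCT2: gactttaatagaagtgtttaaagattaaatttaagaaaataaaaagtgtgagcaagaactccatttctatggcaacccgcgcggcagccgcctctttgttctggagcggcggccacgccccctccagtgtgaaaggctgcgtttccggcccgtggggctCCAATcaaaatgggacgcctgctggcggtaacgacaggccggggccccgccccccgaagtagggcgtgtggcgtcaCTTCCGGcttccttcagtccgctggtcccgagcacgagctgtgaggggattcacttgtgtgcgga

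RefSeq windows were found for 7 of the 8 genes, 9 windows in all since CCT2 and CCT4 have 2 each. The windows of CCT3, CCT5 and CCT7 lay wholly inside the annotated gene. The CCT5 window, for example, begins at 10250287, while the gene begins at 10249929. The sequence before the outermost annotated start of these genes was thus not searched. A CCAAT box stood in a window of 4 genes: TCP1 at position -154 from the start site (counted as 0), CCT3 at -75 and -34, CCT2 at -91 and CCT8 at -63. Over all 35116 RefSeq windows of this length 34.6% held a CCAAT box. A GAANNTTC pair was present in TCP1 at -231 and in the second, downstream window of CCT2 at -89, where 6.77% of all windows held it. The TTCNNGAA pair was present in CCT4 at 38, past the start site, where 7.74% of all windows held it. An ETS site was found in CCT2 at -15 (10.3% of all windows). No E-box, the letters bound by MYC, was found in the 9 windows, against 7.26% of all windows. No searched motif was present in the windows of all 7 genes, and a match is a description of the sequence only.

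**Figure D1:**
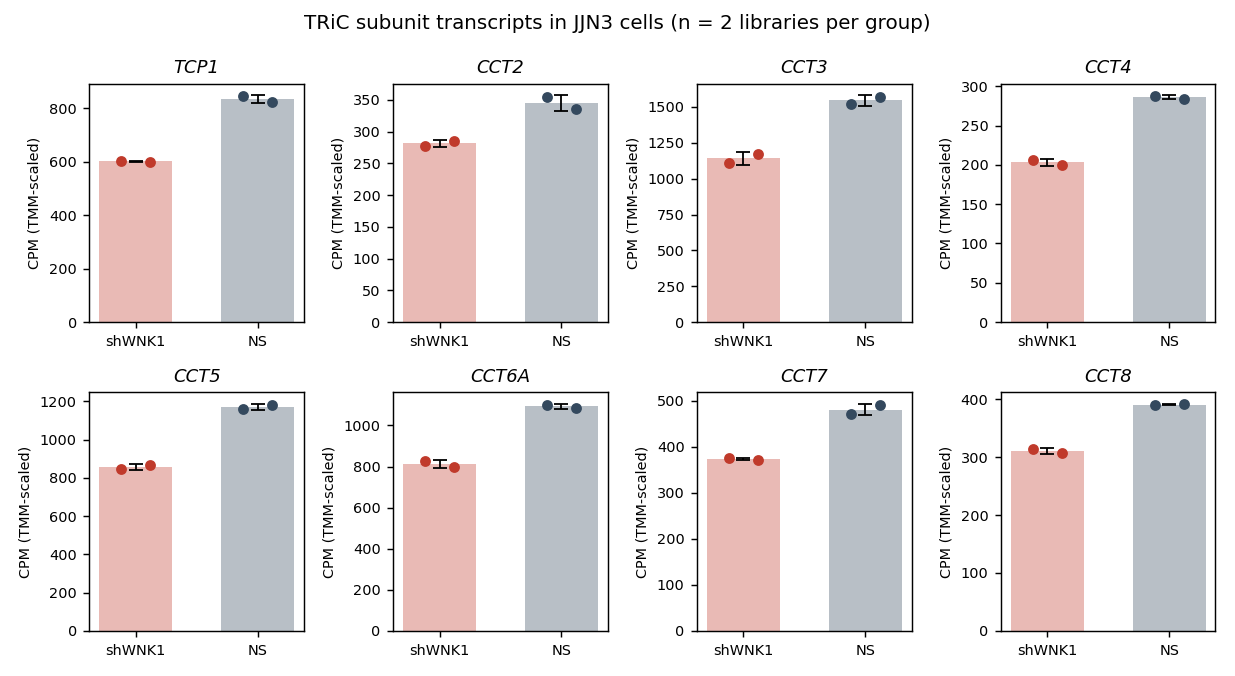
TMM-scaled CPM (vertical axes, each from 0) of the 8 TRiC subunit genes in the shWNK1 and NS libraries. Points are libraries, bars are means and error bars are SD (n = 2 each); in every panel both shWNK1 points lie below both NS points.

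Among the subunits that use ATP strongly, CCT4 (ENSG00000115484.15, the delta subunit; chromosome 2, 61868085 to 61888671) was at 206 and 200 CPM in shWNK1 libraries, against 288 and 284 CPM in NS libraries. This was the largest of the 8 falls (log2 fold change -0.50, SE 0.059, edgeR adjusted p = 3.4e-08). TCP1 (ENSG00000120438.12, alpha, the founding member of the family; chromosome 6, 159778498 to 159789703) was at 602 and 601 CPM in shWNK1 libraries and at 846 and 825 CPM in NS libraries. The shWNK1 libraries were thus closer to each other than the NS libraries were, and the log2 fold change was -0.48 with an SE of 0.055 (edgeR adjusted p = 2.3e-08). CCT5 (ENSG00000150753.12, epsilon, a subunit that can form rings of its own in the test tube and is mutated in a hereditary sensory neuropathy; chromosome 5, 10249929 to 10266389) stood at 847 and 867 CPM in shWNK1 and 1161 and 1183 CPM in NS libraries. Both shWNK1 libraries were lower, by 0.45 on the log2 scale with an SE of 0.055 (edgeR adjusted p = 5.2e-08). CCT2 (ENSG00000166226.13, beta, also described as an autophagy receptor for protein aggregates; chromosome 12, 69585426 to 69601570) had 278 and 285 CPM in shWNK1 libraries and 354 and 336 CPM in NS libraries. It had the smallest fall of the 8 (log2 -0.29, SE 0.058, edgeR adjusted p = 1.4e-04).

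Among the subunits that use ATP weakly, CCT3 (ENSG00000163468.15, gamma; chromosome 1, 156308968 to 156367873) was the most counted of all 8, with 1110 and 1174 CPM in shWNK1 libraries and 1519 and 1572 CPM in NS libraries (log2 -0.44, SE 0.056, edgeR adjusted p = 1.3e-07). CCT6A (ENSG00000146731.11, zeta; chromosome 7, 56051685 to 56063989) had 826 and 798 CPM in shWNK1 libraries and 1102 and 1083 CPM in NS libraries (log2 -0.43, SE 0.055, edgeR adjusted p = 1.5e-07). CCT7 (ENSG00000135624.16, eta; chromosome 2, 73233420 to 73253021) stood at 375 and 372 CPM in shWNK1 and 472 and 490 CPM in NS libraries, a fall of 1.29-fold (edgeR adjusted p = 3.6e-06). CCT8 (ENSG00000156261.13, theta; chromosome 21, 29055805 to 29073797) stood at 315 and 307 CPM in shWNK1 and 390 and 392 CPM in NS libraries, a fall of 1.26-fold (edgeR adjusted p = 2.0e-05). For each of the 8 genes both shWNK1 libraries lay below both NS libraries, as they did for 33.7% of all tested genes. The log2 fold changes ran from -0.50 to -0.29 on the strong side of the ring and from -0.44 to -0.33 on the weak side, so the ranges overlapped. Over the 8 genes their SD was 0.07, beside a median SE of 0.06 for a single gene, and differences between subunits were not tested.

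**Figure D2:**
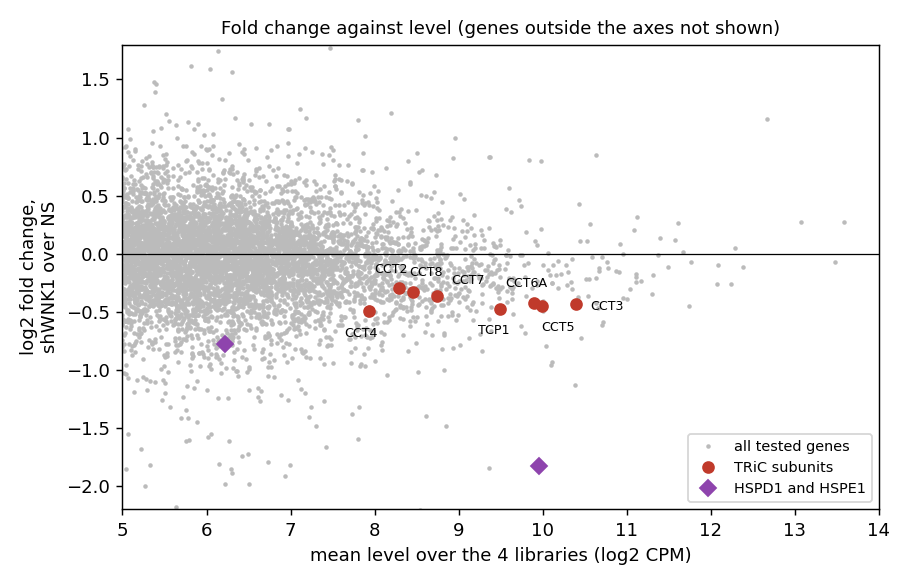
Log2 fold change of shWNK1 over NS (vertical axis) against the mean level over the 4 libraries (horizontal axis, log2 CPM) for tested genes (grey), the 8 TRiC subunits (red) and the mitochondrial chaperonin genes HSPD1 and HSPE1 (diamonds). The subunits form a narrow band between -0.50 and -0.29, while HSPD1 lies at -1.83.

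The 8 genes together had 4558 and 4604 CPM in shWNK1 libraries, against 6132 and 6166 CPM in NS libraries, so the shWNK1 mean was 74.5% of the NS mean. Per base of exon, as TPM (transcript level scaled by exon length), the sum was 3953 and 3944 in shWNK1 libraries and 5154 and 5048 in NS libraries, or 77.4% of the NS mean. TPM here carries no TMM factor. Although each subunit is present in the same number in the complex, their transcript levels per length were unequal. CCT3 was highest with 1041 ± 33.4 TPM in shWNK1 cells and 1359 ± 7.98 TPM in NS cells (SD, n = 2 each). CCT2 was lowest with 235 ± 2.58 TPM in shWNK1 and 277 ± 15.5 TPM in NS cells.

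The order of the TPM levels was the same in both groups: CCT3, CCT6A, CCT5, TCP1, CCT7, CCT8, CCT4 and CCT2. In neither group did the libraries of neighbours in that order overlap. As a share of the summed TPM of the 8, CCT3 held 26.4% ± 0.89 in shWNK1 cells and 26.6% ± 0.55 in NS cells (SD, n = 2 each), and these libraries overlapped, as did those of CCT6A at 18.8% ± 0.56 and 18.9% ± 0.31. CCT8 held 8.31% ± 0.19 of the sum in shWNK1 and 7.8% ± 0.014 in NS cells, and CCT2 held 5.94% ± 0.075 in shWNK1 and 5.43% ± 0.22 in NS cells. These shares and that of CCT7 were higher in both shWNK1 libraries than in either NS library, by 0.35 to 0.52 percentage points. The shares of TCP1, CCT4 and CCT5 were lower, by 0.28 to 0.41 points. An exact permutation test of 2 libraries against 2 cannot pass 0.05, and no other test of the shares was run, so they are a description. The order depends on the length used. With the length of the principal transcript, a length chosen after the data were seen, TCP1 passed CCT5 (13.4% and 12.7% of the sum in NS cells). By that length CCT2 also passed CCT4 (6.75% and 4.54%). Neither length leaves out bases shared with other genes, where fragments may go uncounted. One antisense gene covers 30.8% of CCT5 exon bases, so the level, share and place of CCT5 may be too low by either length. Smaller overlaps lie in TCP1 (9.3%) and CCT4 (10.2% and 6.7%). The order with such bases left out was not tested.

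**Figure D3:**
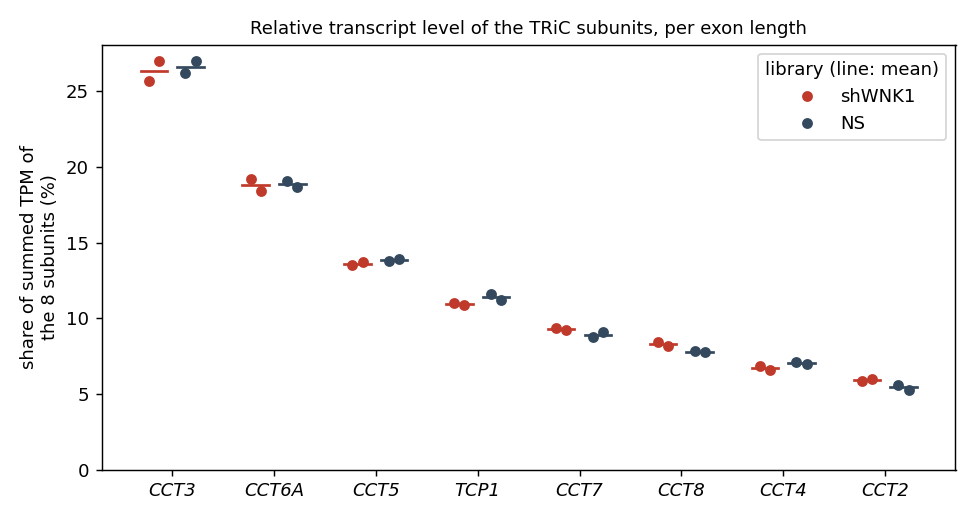
Share of each subunit in the summed TPM of the 8 subunit genes (vertical axis, percent) in each library, with lines at the group means (n = 2 each), subunits ordered by the NS mean. The order is the same in both groups, from CCT3 (26.4% in shWNK1 and 26.6% in NS cells) to CCT2 (5.94% and 5.43%). Lengths include bases shared with other genes, 30.8% of exon bases for CCT5, so its share may be too low.

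Several subunit genes share bases or sequence with other genes. The 3′ end of TCP1 overlapped exons of the opposite-strand gene ACAT2, a thiolase, over 454 bases or 9.3% of TCP1 exon bases. ACAT2 was at 59.6 and 64.6 CPM in shWNK1 and at 62.6 and 66 CPM in NS libraries (edgeR adjusted p = 0.692), far below TCP1. An antisense gene without a name (ENSG00000271980) overlapped 30.8% of CCT5 exon bases. It held no count in shWNK1 libraries, and 0 and 1 in NS libraries. Counting ignored strand, and the recorded command did not keep fragments over more than 1 gene, so such stretches may be undercounted in all libraries. Antisense genes over 10.2% (ENSG00000236498) and 6.7% (ENSG00000286360) of CCT4 exon bases and an unnamed gene over 2.54% of those of CCT8 (ENSG00000286018) had 2 to 35 counts per library. TSACC and ENSG00000231125, which lie across CCT3 and within CCT8 with 0 shared exon bases, had 1 to 35 counts per library. None of these genes was called, and ENSG00000286360 and ENSG00000231125 were too low to test. The small nucleolar RNA genes within TCP1 (SNORA20 and SNORA29) and CCT6A (SNORA15 and SNORA22B) had 0 to 5 counts each and were not tested.

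Of the 14 pseudogenes named after the subunits, 3 were tested. CCT6P1, a partial copy of CCT6A, had 244 and 258 counts in shWNK1 libraries and 196 and 198 counts in NS libraries (log2 0.19, SE 0.156, edgeR adjusted p = 0.355). CCT6P3 had 104 and 113 counts in shWNK1 and 73 and 60 counts in NS libraries (log2 0.55, SE 0.247, edgeR adjusted p = 0.079). CCT8P1 had 22 and 30 counts in shWNK1 and 13 and 12 counts in NS libraries (edgeR adjusted p = 0.218). The copies of CCT6A, which has 14404 to 18789 counts, thus held few counts, and none of the 3 tested pseudogenes was called. Fragments that fit a gene and its copy alike may fall under the recorded mapping quality minimum of 20. Low counts of the copies therefore do not show how many fragments were lost from the subunit genes. The other 11 pseudogenes had 0 to 9 counts per library.

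The 6-letter word AGTATC was searched in 3′ untranslated regions (UTRs), because an earlier analysis of these same libraries found it more often in transcripts that were lower in shWNK1 cells. That choice came from the same data and lends no independent support. In the principal transcripts of GENCODE v29, 0 of the 8 subunit genes held the word in their 3′ UTRs, which were 143 to 1629 bases long and 4453 bases in all. Of all 11803 tested genes searched 20.7% held it, and of the 7327 with a 3′ UTR of at most 1629 bases 8.09% did. It was present in 0 of 6 prefoldin genes, 0 of 14 actin and tubulin genes, 1 of 2 mitochondrial chaperonin genes (HSPD1) and 2 of 9 R2TP and prefoldin-like genes (URI1 and RPAP3), and in WNK1 itself. It was also present in 3 of 14 other clients (FZR1, GNB4 and GNB5) and 1 of 8 HSP70 and HSP90 genes (HSP90AA1). The tubulin cofactors held it in 1 of 6 genes (TBCD) and the regulators in 1 of 6 (HSF2). No chaperonin relative or phosducin-like gene searched held it. Of these holders, RPAP3, FZR1, TBCD and HSF2 were not called lower. With only 8 subunits, no difference from the 8.09% is read, and none was tested. The site of HSPD1, a gene of the other chaperonin, is shown with 12 bases on either side and the word in capitals (transcript strand, chromosome 2).

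HSPD1: acaaagtagagaAGTATCcaattatgtgac

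Prefoldin, a hexamer that binds nascent actin and tubulin and passes them to TRiC, had 4 of its 6 subunits lower and 0 higher (median log2 -0.29; 0 higher also at an unadjusted p under 0.05, with DESeq2 and with limma-voom), beside 20.2% lower and 18.5% higher over all tested genes. PFDN2 was at 113 and 102 CPM in shWNK1 and 131 and 165 CPM in NS libraries (log2 -0.47, SE 0.089, edgeR adjusted p = 3.4e-04). PFDN6 was at 53.7 and 51.4 CPM in shWNK1 and 63.5 and 83.7 CPM in NS libraries (log2 -0.49, edgeR adjusted p = 2.8e-04). The falls of VBP1 (log2 -0.28) and PFDN4 (-0.30) were smaller, and neither was called without shWNK1 replicate 2 (edgeR adjusted p = 0.378 and 0.241); DESeq2 gave PFDN4 an adjusted p of 0.0583. PFDN1 (log2 0.04) and PFDN5 (0.13) were not called, although PFDN5 was higher without NS replicate 2 (log2 0.28, edgeR adjusted p = 0.0028).

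Of 3 tested phosducin-like cochaperones, 1 fell, beside 20.2% of all tested genes, and nothing particular to the list is read from it. PDCL3 was at 12.1 and 15.1 CPM in shWNK1 and 18.1 and 18.3 CPM in NS libraries (log2 -0.41, edgeR adjusted p = 0.0237). It was no longer called by DESeq2 (adjusted p = 0.0903) or without shWNK1 replicate 1 (edgeR adjusted p = 0.342). PDCL (log2 0.11) and TXNDC9 (0.10) were not called. PDCL2, which had counts of 0 and 4 for shWNK1 and 0 and 0 for NS, was too low to test. In the R2TP and prefoldin-like complex, which assembles large complexes with HSP90, 4 of 9 tested genes fell and 0 rose (1 rose at an unadjusted p under 0.05, 0 with DESeq2 and 0 with limma-voom), beside the same 20.2% lower and 18.5% higher over all tested genes. URI1, a prefoldin-like subunit, fell by 0.54 on the log2 scale (SE 0.076) and the AAA+ ATPase RUVBL1 fell by 0.53 (SE 0.065), while its partner RUVBL2 was at -0.15 (edgeR adjusted p = 0.0543). PIH1D1, an adaptor of R2TP, fell by 0.45, a call that ended without shWNK1 replicate 1 (edgeR adjusted p = 0.0541). The fourth called gene, POLR2E, an RNA polymerase II subunit named after its values were seen, was at -0.16 (edgeR adjusted p = 0.0489), and 8 of the 12 alternatives did not call it, with adjusted p of 0.0531 to 0.293. ASDURF had 0 counts in every library.

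The other chaperonin of human cells, the mitochondrial HSP60 ring, fell further than any TRiC subunit. HSPD1, which forms the ring, was at 437 and 436 CPM in shWNK1 libraries and 1564 and 1533 CPM in NS libraries (log2 -1.83, SE 0.057, edgeR adjusted p = 2.3e-22). Its lid HSPE1 was at 61.9 and 48.2 CPM in shWNK1 and 89.8 and 98.9 CPM in NS libraries (log2 -0.78, SE 0.094, edgeR adjusted p = 1.9e-07). HSPE1 (197500140 to 197503449) lies within the interval of HSPD1 (197486584 to 197516737) on the opposite strand. Exon bases shared by these genes were not examined, so both may be undercounted in all libraries. The difference between the TRiC and HSP60 fold changes was not itself tested. Of 4 tested chaperonin-like relatives of TRiC, 1 rose, beside 18.5% of all tested genes, and nothing particular to the list is read from it. MKKS, a protein of the Bardet-Biedl syndrome complex, rose to 25.7 and 26 CPM in shWNK1 libraries, against 21 and 16.5 CPM in NS libraries (log2 0.46, edgeR adjusted p = 0.0047). Its adjusted p was 0.0514 to 0.0748 without either shWNK1 replicate or NS replicate 2. CCT6B, a testis-enriched paralog of CCT6A, had 81 and 57 counts in shWNK1 and 38 and 39 counts in NS libraries (log2 0.70, SE 0.337, edgeR adjusted p = 0.101). BBS12 (log2 0.69) and BBS10 (-0.05) were not called either, and CCT8L2, which had counts of 0 and 1 for shWNK1 and 3 and 0 for NS, was not tested.

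The 8 genes listed for the HSP70 and HSP90 system were all lower (median log2 -0.38), with 0 higher (0 also at an unadjusted p under 0.05, with DESeq2 and with limma-voom). All but DNAJB1 averaged at least 245 CPM, a level at which 50.2% of genes fell, against 20.2% of all tested genes. HSP90AA1 (log2 -0.62), HSPA8, the constitutive HSC70 (-0.45), and STIP1, which links HSP70 to HSP90 (-0.46), had the smallest p. Leaving out shWNK1 replicate 1, 5 of these genes were called. HSF1, the heat shock transcription factor known to drive chaperone genes, was lower by a log2 change of -0.16 with an edgeR adjusted p of 0.0306. It missed the threshold with DESeq2 (adjusted p = 0.0539), upper-quartile factors (edgeR 0.104) and the replicate number as a block (0.0527). It also did so when shWNK1 replicate 1 (0.232), shWNK1 replicate 2 (0.218) or NS replicate 2 (0.0633) was left out. HSF2, USP25, VRK2, RPS6KA1 and RPS6KB1, of which USP25 and VRK2 are known to act on TRiC stability, were not called.

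**Figure D4:**
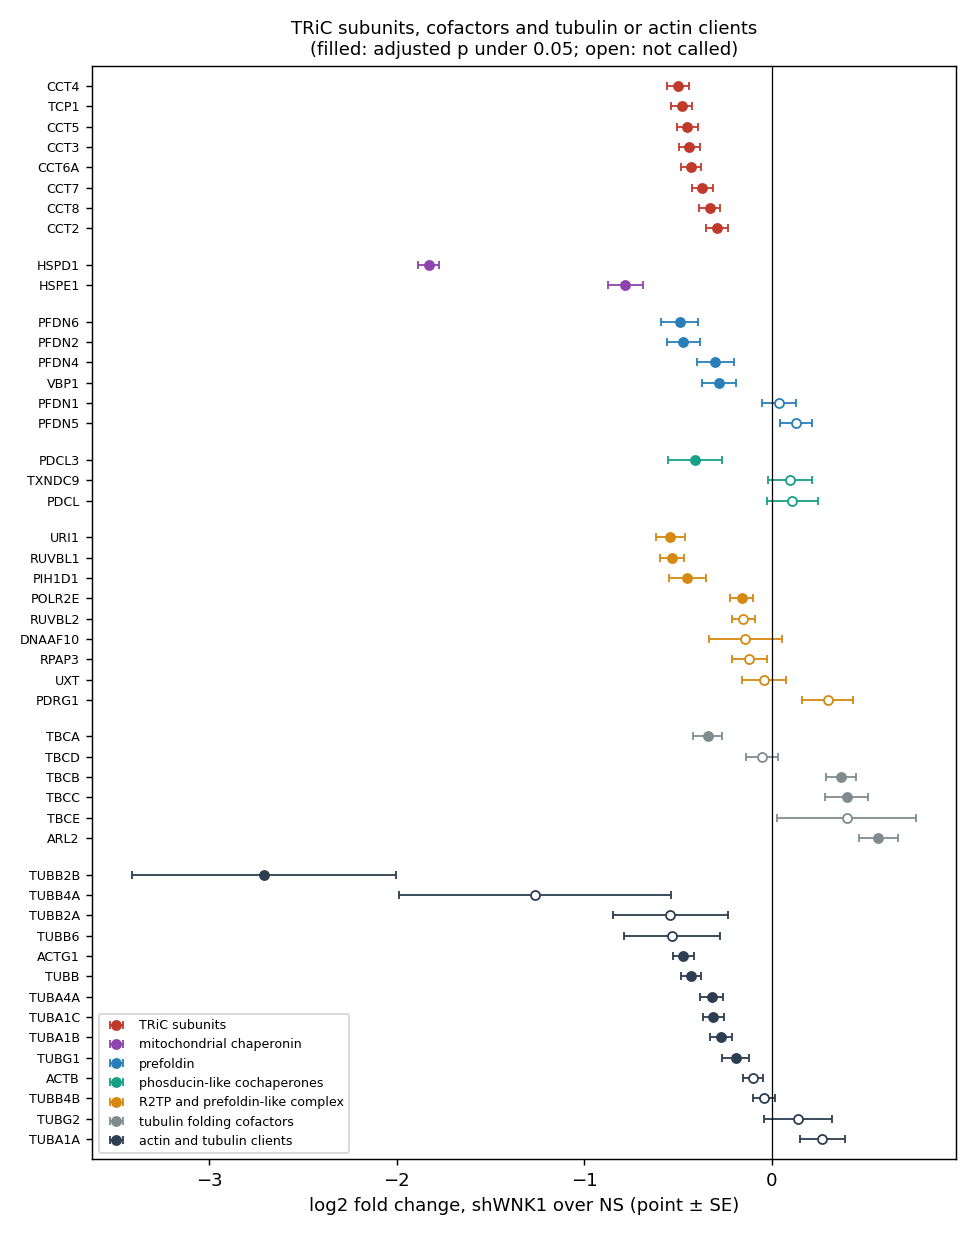
Log2 fold change of shWNK1 over NS (horizontal axis, point ± SE) of the TRiC subunits and of tested genes of its cofactors and of its actin and tubulin clients, grouped by colour. Filled points passed an edgeR adjusted p of 0.05 and open points did not; all 8 TRiC points are filled and left of 0, and the tubulin cofactors lie on both sides.

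Of 14 tested actin and tubulin genes, 7 fell and 0 rose (1 rose at an unadjusted p under 0.05, 0 with DESeq2 and 0 with limma-voom), with a median log2 fold change of -0.32, and 4 fell without shWNK1 replicate 1. The 7 of 14 stand beside 20.2% lower over all tested genes and 50.2% among the abundant genes described above, and nothing particular to the clients is read from them. The cytoplasmic actin ACTG1 was at 1353 and 1347 CPM in shWNK1 and 1875 and 1865 CPM in NS libraries (log2 -0.47, SE 0.054, edgeR adjusted p = 1.9e-08), and the beta tubulin TUBB at 1355 and 1350 CPM in shWNK1 and 1800 and 1832 CPM in NS libraries (log2 -0.43, edgeR adjusted p = 1.3e-07). TUBA1C, an alpha tubulin, fell by 0.31. ACTB, named for its abundance after its values were seen, was at 4153 and 4233 CPM in shWNK1 and 4474 and 4522 CPM in NS libraries (log2 -0.10, SE 0.054, edgeR adjusted p = 0.142), and it was called lower without NS replicate 1 (0.0347) and with limma-voom (0.0416). Tubulin and actin genes resemble each other and have many processed copies, so their counts are uncertain. TUBB3, which had counts of 3 and 2 for shWNK1 and 1 and 0 for NS, was not tested.

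Of the 6 cofactors that take tubulin from TRiC and join it into dimers, 3 rose and 1 fell (median log2 0.38), beside 18.5% higher and 20.2% lower over all tested genes. ARL2, a small GTPase of this pathway, rose to 49.1 and 41.9 CPM in shWNK1 libraries, against 29.7 and 31.4 CPM in NS libraries (log2 0.57, SE 0.103, edgeR adjusted p = 3.3e-05). TBCB, an alpha tubulin cofactor, rose by 0.37 on the log2 scale, and TBCC, which triggers the release of the dimer, by 0.40; the TBCC call ended without shWNK1 replicate 1 (edgeR adjusted p = 0.165). TBCA, which holds beta tubulin, fell by 0.34. Of 14 other clients tested, 6 fell and 2 rose (median log2 -0.08), and the 2 of 14 that rose are near the 18.5% of all tested genes that did. The 6 of 14 that fell stand beside 20.2% over all tested genes and 50.2% among the abundant genes described above. Nothing particular to these clients is read from the counts. The falls included the mitotic kinase PLK1 (log2 -0.83), the WD40 activator of mitotic proteolysis CDC20 (-0.66) and the G protein beta subunit GNB4 (-0.59). RPTOR, a WD40 subunit of the mTORC1 kinase complex, rose by 0.35 (edgeR adjusted p = 0.0010). STAT3 rose by 0.18 (edgeR adjusted p = 0.0298), and missed the threshold with DESeq2 (adjusted p = 0.0889), no count filter (edgeR 0.0568) or the replicate block (0.0623). The same was so when shWNK1 replicate 1 (0.0888), shWNK1 replicate 2 (0.392) or NS replicate 2 (0.123) was left out.

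The genes whose profile over the 4 libraries lay nearest to the mean profile of the 8 subunits were EIF2B3, SNRNP40, TRAP1, RAI1 and HSPA9. Likeness was the Euclidean distance between log2 CPM values centred on each gene's mean, over 4 libraries, among 4634 genes averaging 50 CPM or more. The distances of these 5 genes were 0.017 to 0.022, and their log2 fold changes were -0.42 to -0.39. Each of the 8 subunits lay farther from the mean profile, at 0.043 (CCT6A) to 0.132 (CCT2). The mean subunit profile was -0.21 and -0.20 in shWNK1 libraries and 0.21 and 0.20 in NS libraries. HSPA9, the mitochondrial HSP70, was at 645 and 658 CPM in shWNK1 and 872 and 866 CPM in NS libraries. TRAP1, the mitochondrial HSP90, was at 225 and 226 CPM in shWNK1 and 298 and 295 CPM in NS libraries. EIF2B3 encodes a subunit of the exchange factor of the initiation factor eIF2, and SNRNP40 a WD40 protein of the U5 splicing particle; RAI1 is the gene mutated in Smith-Magenis syndrome. The distance over 4 libraries is a description only.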

How the data were processed

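RNA-seq of total RNA was made from 4 libraries, 2 shWNK1 and 2 NS, grouped by their titles. The title of shWNK1 replicate 2 misspells the gene, and its treatment label reads shWNK1. The authors deposited raw counts of fragments per gene, made with featureCounts v2.0.0 on GENCODE v34 without strand (setting 0), per the file headers, which also record a mapping quality minimum of 20, pairs with both ends aligned only, and no chimeric fragments. Trimmomatic and STAR on hg38 are named in the submitters' processing notes. The deposited table also gives exon lengths. Of 60728 genes listed, 1 was left out because its line is broken over 3 lines, and 45 Y copies of pseudoautosomal genes, all at 0, were left out. Symbols matched 60369 of the 60682 identifiers left; for MKKS, a symbol of several identifiers, the lowest was used. Gene types, principal transcripts and 3′ UTRs came from GENCODE v29, also on GRCh38, and promoters from RefSeq.

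Differences in counts were computed by edgeR 4.0.16 under R 4.3.3 (filterByExpr, TMM, glmQLFit robust, glmQLFTest, group as the only term, 2 residual degrees of freedom, two-sided), with Benjamini-Hochberg adjustment over 14864 genes. The fit was tested on simulated data. CPM uses TMM-scaled library sizes, except summed marker levels, which use library totals; TPM was computed from counts and exon lengths. SE is the size of the log2 fold change over the square root of F. Depth gives 3 counts a level of 0.149 to 0.177 CPM. Replicates differed from each other beyond counting noise (chi-square per degree of freedom 2.98 and 6.21). Alternatives were DESeq2 1.42.0, limma-voom (limma 3.58.1), other scaling and filters, a replicate block and leaving out libraries.

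The members, gene lists and motifs were chosen with earlier results of these data known. Named genes were the 8 subunits, WNK1, every tested gene of the prefoldin, phosducin-like, chaperonin relative and mitochondrial chaperonin lists, up to 3 rising and 3 falling called genes of each other list by smallest p, untested members, copies and overlapping genes of the subunits, and the 5 nearest profiles among genes of at least 50 CPM. A few items that this rule would name are not reported here.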

Additional observations from a re-analysis of the deposited data

How the results depend on the processing

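All 8 subunits fell, and were called, under each of the 12 alternatives run, which gave 96 fold changes in the same direction; the median over the 8 ran from -0.44 to -0.39 on the log2 scale. CCT2 had the largest adjusted p, 0.0351 without shWNK1 replicate 1 (edgeR). Leaving out 1 library at a time, 1632 to 2778 genes rose and 1964 to 3024 fell over all tested genes. By list, the same gave 0 to 1 chaperonin relatives, prefoldin or R2TP genes higher, and 1 to 2 other clients higher. It gave 2 to 4 prefoldin, 0 to 1 phosducin-like, 2 to 5 R2TP, 4 to 8 actin and tubulin, 0 to 1 regulator and 5 to 8 HSP70 and HSP90 genes lower. With upper-quartile factors 1 R2TP gene and 1 actin or tubulin gene rose, and 0 regulators fell. With DESeq2 0 phosducin-like genes and 0 regulators fell and 1 other client rose, and without the count filter 1 other client rose. The cause was not tested.

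The deviations of same-numbered libraries from their group means were not correlated over genes (-0.0047). With 2 libraries per group this cannot show that the samples were unpaired. The numbers were not taken to pair the samples because the labels do not state that they mark shared cultures. The count columns also carry the letters A and B, in step with the numbers, which may mark paired cultures; the labels do not say so, and the block is the same for both. With the replicate block 8 subunits fell, 1 other client rose, 0 regulators fell, and 2539 genes rose and 2804 fell in all.

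With principal transcript length, added after the data were seen, shares of the summed level in shWNK1 and NS cells were 12.8% and 13.4% for TCP1, 7.37% and 6.75% for CCT2, 28.4% and 28.7% for CCT3, 4.3% and 4.54% for CCT4, 12.5% and 12.7% for CCT5, 16% and 16.1% for CCT6A, and 10.4% and 10.0% for CCT7. Protein lengths were not run, since no protein table was used here. A count of 0 allows a level of up to 3 counts, 0.149 to 0.177 CPM in these libraries, by counting error alone.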
